A study of Homo sapiens with 4 samples.

Results

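The genes described here encode the chains of the collagens and laminins, the main structural proteins of the extracellular matrix and of basement membranes. They were chosen by gene symbol alone, as every row named COL, a number, A and a number, or LAM, the letter A, B or C and a digit. This gave 56 genes of the 58174 rows that name a gene, of which 44 encode collagen chains and 12 encode laminin chains. RNA was sequenced from 2 established human pancreatic cancer cell lines, SW1990 and PANC-1, both labelled as passage 14 to 16 and grown in serum-containing medium, a different medium for each line. One culture of each line was left unirradiated and one was labelled as irradiated, for which the stated treatment is 10 Gy of X-rays. The time from radiation to extraction is not given in the labels. Each line and treatment has 1 library, so 4 libraries were compared and no value has a replicate. The counts assigned to named genes summed to 17851815 in unirradiated SW1990, 18305682 in irradiated SW1990, 23323266 in unirradiated PANC-1 and 20026595 in irradiated PANC-1.

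Collagens are trimers of alpha chains wound into a triple helix. Fibrillar collagens build the tension-bearing fibrils of connective tissue, type IV collagen builds the network of the basement membrane, and smaller families decorate fibrils, anchor the basement membrane or span the plasma membrane. Laminins are cross-shaped trimers of 1 alpha, 1 beta and 1 gamma chain that lie under epithelia and bind integrins and dystroglycan on the cell surface. In pancreatic cancer much of the collagen of the dense stroma is made by fibroblasts and stellate cells, while carcinoma cells make basement membrane chains of their own.

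The 2 lines were checked against markers of the cell types that could be present. Epithelial keratins were abundant in both, with KRT8 at 1353, 1889, 786 and 851 FPKM in unirradiated SW1990, irradiated SW1990, unirradiated PANC-1 and irradiated PANC-1. FPKM counts fragments relative to transcript length and library size, and values for the 4 libraries are given in this order from here on. EPCAM, an epithelial adhesion molecule, stood at 217, 218, 2.28 and 2.81 FPKM, and CDH1, which encodes E-cadherin, at 140.1, 239, 0.67 and 1.21 FPKM. Among 5 mesenchymal markers, which summed to 0.94, 1.49, 1648 and 1671 FPKM, VIM, the intermediate filament of mesenchymal cells, led in PANC-1, at 0.63 and 0 FPKM in SW1990 and at 1627 and 1650 FPKM in PANC-1. Thus both lines carried keratins, and PANC-1 lacked most of the CDH1 and EPCAM message and carried VIM. Of 10 fibroblast and stellate cell markers, PDGFRA, DCN, FAP, POSTN and DPT had 0 counts in all 4 libraries. The summed level of these 10 markers was 5.99, 9.34, 0.46 and 0.71 FPKM, led by ACTA2 (smooth muscle actin) in SW1990 and by THY1, with 0, 0, 46 and 51 counts, in PANC-1. Endothelial markers summed to 0.16, 0.31, 6.38 and 5.44 FPKM, nearly all of it KDR in PANC-1, leukocyte markers to 0.92, 1.33, 0.59 and 1.09 FPKM, led by CD14, and acinar markers to 0.60, 0.45, 0 and 0 FPKM. CDH1, EPCAM and VIM thus also separated the lines widely. KRT8 and KRT18 did so to a smaller degree, higher in SW1990, with KRT18 at 944, 1062, 468 and 539 FPKM. KRT7 and KRT19 overlapped between the lines. The part of these markers in the differences below was not tested. In bulk RNA, a smaller share of expressing cells and less RNA per cell cannot be told apart.

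Of the 56 genes, 25 reached an FPKM of 1 in at least 1 library, 16 collagens and 9 laminins. The number at or above that level was 10 in unirradiated SW1990 (3 collagens and 7 laminins), 14 in irradiated SW1990 (7 and 7), 22 in unirradiated PANC-1 (14 and 8) and 24 in irradiated PANC-1 (15 and 9). In all, 13 reached it in both lines, 11 in PANC-1 alone and COL17A1 in SW1990 alone. The remaining 31 genes were low or absent. Among them COL1A2, COL4A3, COL8A1, COL19A1, COL22A1, COL23A1 and COL25A1 had 0 counts in every library, which allows up to 3 counts, or 0.168 CPM (counts scaled to the total of the library) in the shallowest library and 0.129 CPM in the deepest. The other 24 had between 2 counts in total and a highest single value of 112 counts, for COL6A5 in irradiated SW1990. COL1A2 encodes the second chain of type I collagen, and its 0 counts stood beside 103, 165, 965 and 1315 counts of COL1A1, the first chain.

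The laminins made up most of the summed FPKM of this set in both lines, and a larger part of it in SW1990. Their summed FPKM was 229, 256, 282 and 341, against 15.4, 28.4, 169 and 219 for the collagens. The laminin sums of the lines were therefore closer than the collagen sums, which were several times higher in PANC-1. On CPM the laminins summed to 1134, 1301, 1585 and 1837. They stood higher in PANC-1 on both scales. The plot of FPKM by gene shows most laminins toward the right in both lines, with LAMA4 and LAMC3 at the left in SW1990, while the collagens of SW1990 lie mostly left of an FPKM of 1.

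**Figure D1:**
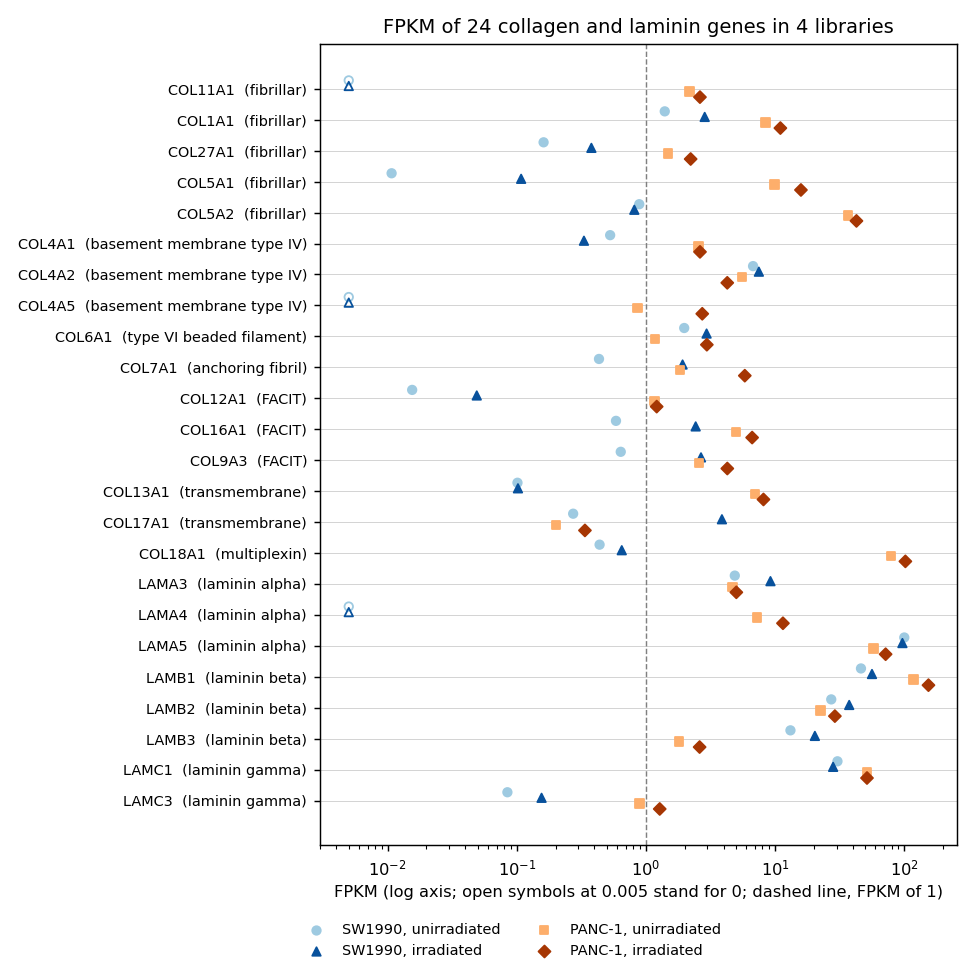
FPKM (x axis, logarithmic) of 24 collagen and laminin genes that reached an FPKM of 1, grouped by class on the y axis; circles and triangles stand for unirradiated and irradiated SW1990, squares and diamonds for unirradiated and irradiated PANC-1, and open symbols at 0.005 stand for 0. COL5A1 and COL18A1 show the widest gaps between the lines among genes above 0 in all 4 libraries.

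The first comparison was between the lines. In the fit of all 4 libraries with line and treatment as terms (edgeR's quasi-likelihood test, adjusted p below 0.05 and a fold above 2), 28 of the 35 tested genes differed, 22 of them higher in PANC-1 and 6 higher in SW1990. Of all 18180 genes tested, 33.6% differed, 17% higher in PANC-1 and 16.6% higher in SW1990. The median log2 difference, SW1990 minus PANC-1, was -2.62 over the 35 genes and -0.01 over all genes. A gene can enter this fit through 1 line alone, in which case it had to differ. Of the 35, 15 had fewer than 10 counts in at least 1 library, among them 6 at 0 counts in both SW1990 libraries and 3 in both PANC-1 libraries. Of the 20 with at least 10 counts in all 4 libraries, 13 were called, beside 25.2% of all genes with such counts. The libraries of a line are 1 unirradiated and 1 irradiated culture with 1 residual degree of freedom in the fit, and the line cannot be told apart from its culture medium.

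Among the 11 fibrillar collagens, 7 were tested and all 7 differed, 6 of them higher in PANC-1, beside 33.6% of all genes. COL5A1, COL11A1 and COL3A1 entered the fit through PANC-1 alone and had to differ. The other 4 had at least 10 counts in all 4 libraries, and 25.2% of all genes with such counts were called. COL5A2, a chain of type V collagen that starts and limits the growth of type I fibrils, had 135, 126, 7168 and 7171 counts, or 0.89, 0.81, 36.8 and 42.7 FPKM. Its scaled count was 47.2-fold higher in unirradiated PANC-1 than in unirradiated SW1990 and 55.0-fold higher among the irradiated libraries (log2 difference -5.68, adjusted p = 0.00024, edgeR). COL5A1, the partner chain, had 2, 6, 2168 and 2826 counts, and its 2 counts in unirradiated SW1990 place the log2 difference of the unirradiated pair between -12.96 and -8.06 by counting error. Thus COL5A1 was close to absent and COL5A2 low in SW1990, and the lines did not overlap in either chain.

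COL1A1 had 103, 165, 965 and 1315 counts and 1.40, 2.85, 8.44 and 11.01 FPKM. It was 8.32-fold higher in PANC-1 without radiation and 7.71-fold higher with it (log2 difference -3.01, adjusted p = 0.00047, edgeR). COL11A1, a chain of the minor fibrillar type XI collagen, had 0 counts in both SW1990 libraries and 254 and 221 counts in PANC-1, at least 64.8-fold and 67.3-fold higher against a floor of 3 counts per library. COL3A1, the type III chain of skin and vessel walls, had 0, 0, 80 and 77 counts, at least 20.4-fold and 23.5-fold higher in PANC-1, with an FPKM below 1. COL27A1, a fibrillar collagen of cartilage, had 13, 32, 186 and 192 counts (log2 difference -3.05, adjusted p = 0.0049, edgeR). COL11A2 went the other way, with 55, 47, 12 and 19 counts (log2 difference 1.83, adjusted p = 0.038, edgeR). Its call is fragile: without irradiated SW1990 its adjusted p was 0.067, without unirradiated SW1990 0.099 and without unirradiated PANC-1 0.088, all by edgeR with the line as the only term.

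Among the type IV chains each line used a different set. COL4A1 and COL4A2 encode the 2 chains of the ubiquitous type IV trimer, and their genes lie head to head on chromosome 13 in GRCh38, with COL4A1 on the minus strand (chr13:110148963-110307149) and COL4A2 on the plus strand (chr13:110305812-110513027). In RefSeq on GRCh38.p14 126 bases lie between their start sites. COL4A2 had 613, 620, 797 and 591 counts and 6.76, 7.498, 5.58 and 4.27 FPKM, with a log2 difference of -0.05 (adjusted p = 0.84, edgeR). The lines overlap in its counts but not in its FPKM, which stood higher in SW1990. COL4A1 had 33, 49, 378 and 315 counts and 0.53, 0.33, 2.55 and 2.62 FPKM, 10.2-fold higher in unirradiated PANC-1 and 6.22-fold higher in irradiated PANC-1 (log2 difference -2.99, adjusted p = 0.0023, edgeR). The FPKM ratio of COL4A2 to COL4A1 was therefore 12.8 and 22.6 in SW1990 but 2.19 and 1.63 in PANC-1, and the ratio of their counts, which is not scaled to length, was 18.6, 12.7, 2.11 and 1.88, while the assembled protein is known to hold 2 alpha 1 chains for each alpha 2 chain. The annotated spans of these genes overlap on opposite strands. Nothing in the sources used here says whether counting used the strand, and if it did not, reads in that overlap cannot be told apart. COL18A1, COL9A3, LAMA5 and LAMB1 likewise overlap SLC19A1, TCFL5, ADRM1 and DLD on the opposite strand, whose highest counts in a library were 1122, 395, 3183 and 1951.

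The rarer type IV chains split between the lines. COL4A4 and COL4A5 entered the fit through 1 line alone and had to differ. COL4A4, a chain of the glomerular basement membrane, had 67, 57, 0 and 0 counts, at least 29.2-fold and 20.8-fold higher in SW1990, at an FPKM of at most 0.31. Its head-to-head neighbour COL4A3, with 418 bases between the start sites in RefSeq, had 0 counts in all 4 libraries. COL4A5, the X-linked chain affected in Alport syndrome, had 0, 0, 138 and 212 counts, at least 35.2-fold and 64.6-fold higher in PANC-1. Its neighbour COL4A6, with 379 bases between the nearest start sites, had 0, 0, 9 and 23 counts. In each of the 3 divergent pairs, then, 1 gene had several times the counts of the other in at least 1 line. The stretches between such neighbours are shown because each holds upstream sequence of both genes. They come from RefSeq on GRCh38.p14, 5′ to 3′ on the plus strand, and cover the exon-free part of the 250 bases before the named start site. Capitals mark matches on either strand to 3 short promoter motifs. The CCAAT box was searched by the letters in its name. The letters TATAAA stood for the TATA box. The GC box was searched as GGGCGG.
COL4A3 (chr2:227164454-227164564): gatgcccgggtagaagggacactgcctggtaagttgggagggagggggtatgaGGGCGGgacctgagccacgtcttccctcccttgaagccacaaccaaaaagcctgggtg
COL4A5 (chrX:108439588-108439837): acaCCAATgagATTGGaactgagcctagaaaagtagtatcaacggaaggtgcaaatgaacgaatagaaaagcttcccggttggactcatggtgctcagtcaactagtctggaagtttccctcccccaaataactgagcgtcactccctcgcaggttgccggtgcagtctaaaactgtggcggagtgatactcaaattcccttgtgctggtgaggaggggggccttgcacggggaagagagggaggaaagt
The COL4A3 stretch holds 1 GC box and the COL4A5 stretch 2 CCAAT boxes in opposite orientation. Of all 35116 RefSeq windows of 250 bases, 32.0% hold a CCAAT box, 42.6% a GC box and 10.7% a TATA box. Of the 55 windows that belong to 41 of the 56 genes, 14 hold a CCAAT box, 32 a GC box and 8 a TATA box. These matches are descriptions of the letters only.

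COL18A1 was the most abundant collagen of PANC-1. It encodes a multiplexin, a basement membrane collagen with a sugar-carrying core and a C-terminal fragment known as endostatin. It had 54, 78, 12078 and 12445 counts and 0.44, 0.65, 78.9 and 102.3 FPKM, 199-fold higher in unirradiated and 154-fold higher in irradiated PANC-1 (log2 difference -7.45, adjusted p = 0.00024, edgeR). It supplied 2.84% and 2.29% of the collagen FPKM of SW1990 and 46.7% of it in each PANC-1 library. In SW1990 the leading collagen was COL4A2, with 43.8% and 26.4% of the collagen FPKM, which supplied 3.30% and 1.95% in PANC-1. The leading collagen thus differed between the lines, and COL18A1 alone exceeded the 11 fibrillar chains together, which summed to 2.91, 4.63, 59.8 and 75.2 FPKM, in PANC-1.

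The FACIT collagens bind to the surface of fibrils, and all 4 tested of 10 were higher in PANC-1, beside 17% of all genes. COL12A1 and COL21A1 had fewer than 10 counts in at least 1 SW1990 library and passed the count filter through PANC-1. COL12A1 had 4, 13, 358 and 315 counts and 0.015, 0.049, 1.17 and 1.21 FPKM (log2 difference -5.24, adjusted p = 0.0015, edgeR) and COL16A1 had 32, 103, 386 and 402 counts and 0.59, 2.43, 4.99 and 6.65 FPKM (log2 difference -2.62, adjusted p = 0.0077, edgeR). COL9A3 had 33, 59, 124 and 179 counts and 0.64, 2.67, 2.57 and 4.27 FPKM (log2 difference -1.65, adjusted p = 0.015, edgeR). COL21A1 had 4, 6, 60 and 26 counts, with an FPKM below 1 (log2 difference -2.87, adjusted p = 0.024, edgeR). The calls of the last 3 each depended on the libraries used. COL9A3 was lost in 3 of the 4 edgeR fits without 1 library, with an adjusted p of 0.136 without irradiated PANC-1, 0.093 without unirradiated SW1990 and 0.058 without unirradiated PANC-1, and DESeq2 and limma did not call it. For COL16A1 the adjusted p was 0.086 without irradiated and 0.077 without unirradiated PANC-1, and for COL21A1 it was 0.083 without unirradiated PANC-1 and 0.061 without unirradiated SW1990, all by edgeR. COL13A1, a transmembrane collagen of cell contacts, had 6, 8, 358 and 385 counts and 0.10, 0.10, 7.01 and 8.14 FPKM, 53.0-fold and 46.5-fold higher in PANC-1 on scaled counts (log2 difference -5.61, adjusted p = 0.00048, edgeR). It had fewer than 10 counts in both SW1990 libraries, so it entered the fit through PANC-1 alone and had to differ. COL7A1, which forms the fibrils that anchor the epidermal basement membrane, had 80, 128, 288 and 635 counts and 0.43, 1.92, 1.83 and 5.84 FPKM (log2 difference -1.98, adjusted p = 0.0041, edgeR). Without irradiated PANC-1 its log2 difference was -1.26 (adjusted p = 0.083, edgeR) and without unirradiated SW1990 -1.76 (adjusted p = 0.063, edgeR).

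Type VI collagen forms beaded filaments of 3 different chains, and its chains also split. COL6A1 had 104, 153, 93 and 190 counts, with lines that overlap (log2 difference 0.02, adjusted p = 0.96, edgeR). COL6A2 had 0, 0, 56 and 65 counts, at least 14.3-fold and 19.8-fold higher in PANC-1, and COL6A3 had 2, 0, 46 and 50 (log2 difference -5.34, adjusted p = 0.0095, edgeR). COL6A5 and COL6A6, the chains that can replace the third chain, had 35, 112, 0 and 0 and 15, 32, 0 and 0 counts. COL6A5 was at least 15.2-fold and 40.8-fold higher in SW1990, and COL6A6 at least 6.53-fold and 11.7-fold. DESeq2 did not call COL6A6. Thus the canonical partners of COL6A1 had counts in PANC-1, while SW1990 had the alternative chains. All but COL6A1 stayed below an FPKM of 1, entered the fit through 1 line alone and had to differ. COL26A1, which belongs to no large family, had 0, 0, 18 and 12 counts. It entered the fit through PANC-1 alone and had to differ. There it was at least 4.59-fold and 3.66-fold higher than in SW1990 (adjusted p = 0.028, edgeR). Its call was lost without irradiated PANC-1 and by DESeq2, and it was not tested without unirradiated PANC-1.

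Laminins differed in both directions. Of 12 genes, 10 were tested and 6 differed, 4 higher in PANC-1 and 2 higher in SW1990, beside 33.6% of all genes. LAMA4 and LAMA1 entered through 1 line alone, and 4 of the other 8 were called, beside 25.2% of all genes with at least 10 counts in all 4 libraries. LAMA5, the alpha chain of the main laminins of mature epithelia, was the main alpha chain in all 4 libraries, with 8857, 8967, 11717 and 12974 counts and 100.3, 97.0, 57.9 and 71.9 FPKM. It supplied 95.1%, 90.8%, 82.8% and 81.2% of the alpha chain FPKM and 93.6%, 89.5%, 90.1% and 89.7% of the alpha chain counts, which are not scaled to length. The shares of the lines did not overlap on FPKM and overlapped on counts. On counts it was not called between the lines (log2 difference -0.37, adjusted p = 0.098, edgeR), and on FPKM it stood higher in SW1990, so its direction depends on the scale. LAMA4, the alpha chain of mesenchymal and endothelial basement membranes, had 0, 0, 790 and 933 counts, at least 202-fold and 284-fold higher in PANC-1, and supplied 10.3% and 13.0% of the alpha chain FPKM there and 6.08% and 6.45% of the alpha chain counts. LAMA1, the alpha chain of the early embryo, had 59, 96, 4 and 4 counts (log2 difference 4.303, adjusted p = 0.0031, edgeR), below an FPKM of 1. LAMA3, an alpha chain of epithelial laminins, had 546, 945, 477 and 541 counts (log2 difference 0.60, adjusted p = 0.063, edgeR). It passed both limits without unirradiated SW1990, at a log2 difference of 1.001 (adjusted p = 0.031, edgeR).

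Among the beta chains LAMB1 and LAMB3 differed in opposite directions. LAMB1, the common beta chain, had 3489, 4095, 10144 and 10229 counts and 46.3, 56.4, 118.5 and 154 FPKM (log2 difference -1.33, adjusted p = 0.0019, edgeR). LAMB3, a beta chain of epithelial laminins, had 1046, 1678, 174 and 161 counts and 13.2, 20.4, 1.81 and 2.61 FPKM, 6.77-fold and 10.8-fold higher in SW1990 (log2 difference 3.09, adjusted p = 0.00078, edgeR). LAMB2, the beta chain of neuromuscular and glomerular laminins, had 1949, 2846, 2010 and 2025 counts and was not called (log2 difference 0.33, adjusted p = 0.18, edgeR). As a result LAMB3 supplied 15.2% and 17.8% of the beta chain FPKM in SW1990 and 1.26% and 1.40% in PANC-1, and LAMB1 supplied 53.4% and 49.3% in SW1990 and 82.9% in each PANC-1 library.

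LAMC1, the common gamma chain, had 3573, 4476, 8995 and 8044 counts and 30.5, 28.2, 51.4 and 51.6 FPKM. Its log2 difference of -0.99 (adjusted p = 0.0070, edgeR) was just short of the fold limit, and it passed without irradiated SW1990, at -1.16 (adjusted p = 0.0072, edgeR). LAMC3 had 12, 22, 158 and 195 counts (log2 difference -3.30, adjusted p = 0.0026, edgeR).

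The second comparison was between irradiated and unirradiated cells of a line, the contrast for which the libraries were made. In SW1990, COL17A1 and COL16A1 were higher after radiation, and no other of the 14 tested genes passed. With 1 library a side, a gene was called when an exact test of the reads of the 2 libraries gave a q-value below 0.001 and the scaled counts differed by more than 2-fold. This compares 2 libraries and not 2 conditions, so no p-value is printed. Of all 15731 genes tested in SW1990, 4.2% were called, 2.26% higher and 1.95% lower, against 2 of these 14 genes, both higher. Both stood below an FPKM of 1 without radiation and entered the test through the irradiated library. Of the 10 genes at an FPKM of at least 1 in both libraries 0 were called, beside 2.95% of all genes at that level. With an assumed coefficient of variation of 0.2 between cultures COL16A1 was not called, and with 0.4 neither was, where the fit of all 4 libraries estimated 0.219. With the fold taken from FPKM COL1A1 was also called, at a log2 fold change of 1.03 against 0.67 on counts.

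COL17A1 encodes the transmembrane collagen of hemidesmosomes, the junctions by which epithelial cells hold on to the basement membrane. It had 35 counts in unirradiated and 253 in irradiated SW1990, a log2 fold change of 2.85 (95% counting interval 2.33 to 3.40), or 7.19-fold. PANC-1 had 34 and 48 counts, a log2 fold change of 0.63 with an interval of -0.04 to 1.31, and its FPKM stayed at 0.20 and 0.34. Thus the irradiated SW1990 library stood apart from the other 3, which lay between 34 and 48 counts. Between the lines COL17A1 was not called over all 4 libraries (log2 difference 1.40, adjusted p = 0.13, edgeR), and it was called without unirradiated SW1990 (log2 difference 2.73, adjusted p = 0.0050, edgeR). Its gene spans chr10:104031286-104086002 on the minus strand. The RefSeq start site lies inside this span, at 104085880, and the window before it holds 1 TATA box and 1 CCAAT box. The stretch below ends short of that site and leaves out the CCAAT box. The upstream bases that lie outside the annotated gene are shown because this gene had the largest fold change of the tested genes, and the capitals again mark a match to the 3 motifs, here 1 TATA box (RefSeq, GRCh38.p14, 5′ to 3′ on the minus strand).
COL17A1 (chr10:104086003-104086130): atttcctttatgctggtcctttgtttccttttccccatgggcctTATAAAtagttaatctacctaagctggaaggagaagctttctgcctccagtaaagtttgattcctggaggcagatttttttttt

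COL16A1, a FACIT collagen that links fibrils to cells, had 32 and 103 counts in SW1990, a log2 fold change of 1.68 (1.10 to 2.30), or 3.20-fold. In PANC-1, where it had 386 and 402 counts, its log2 fold change was 0.19 (-0.02 to 0.39). COL6A5 had a fold change of like size in SW1990, with 35 and 112 counts (1.67, 1.11 to 2.26), but lay below the FPKM limit for testing. With no FPKM filter COL6A5 was also called, so that 3 of 39 of these genes were, beside 860 of all 26552. In the same libraries the mesenchymal regulator ZEB1 had 14 and 66 counts, VIM 17 and 0, FN1 0 and 25, the pericyte and stellate cell receptor PDGFRB 129 and 63, and ACTA2 110 and 218, and their part in these changes was not tested. The other tested collagens of SW1990 lay between 0.01 for COL4A2 and 0.83 for COL9A3.

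No laminin of SW1990 passed the fold limit. Among the tested laminins LAMA3 had the largest value, 0.78 (0.63 to 0.94), from 546 to 945 counts. LAMB3 followed with 0.68 (0.56 to 0.79) and LAMB2 with 0.54 (0.46 to 0.62). Each of these intervals lay above 0 and below 1. LAMC1 stood at 0.32 (0.25 to 0.38), LAMB1 at 0.22 (0.16 to 0.29) and LAMA5 at 0.01 (-0.03 to 0.05). On FPKM LAMC1 turned to -0.112 and LAMA5 to -0.048.

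In PANC-1, COL7A1 and COL6A1 were higher after radiation, and no other of the 24 tested genes passed. Of all 15159 genes tested in PANC-1, 4.77% were called, 2.42% higher and 2.35% lower, against 2 of these 24, both higher. Both were at an FPKM of at least 1 in both libraries, so that 2 of the 22 genes at that level were called (9.09%), beside 3.28% of all genes. With an assumed coefficient of variation of 0.2 neither was called. COL7A1 had 288 and 635 counts, a log2 fold change of 1.27 (1.07 to 1.48), or 2.41-fold. In SW1990 it had 80 and 128 counts and a log2 fold change of 0.67 (0.26 to 1.09). COL6A1 had 93 and 190 counts in PANC-1, a log2 fold change of 1.16 (0.80 to 1.53), or 2.24-fold, and 0.55 (0.18 to 0.92) in SW1990. For both genes the intervals of the 2 lines overlap. The difference between the lines was not tested, since 4 libraries leave no degree of freedom for it.

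The abundant PANC-1 collagens lay within 2-fold of their unirradiated level. COL18A1 had a log2 fold change of 0.17 (0.14 to 0.21), COL5A2 of 0.13 (0.08 to 0.18) and COL5A1 of 0.51 (0.43 to 0.59). COL1A1 stood at 0.58 (0.46 to 0.70) and COL4A5 at 0.75 (0.43 to 1.07), each with an interval above 0 and a fold below the limit. On FPKM the log2 fold change of COL4A5 was 1.67, and with the fold taken from FPKM it was called. On the lower side was COL4A2 at -0.30 (-0.46 to -0.15), also within 2-fold. LAMB1, the chain with the highest FPKM in PANC-1, stood at 0.14 (0.10 to 0.18). The narrow intervals on such genes cover counting error only.

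**Figure D2:**
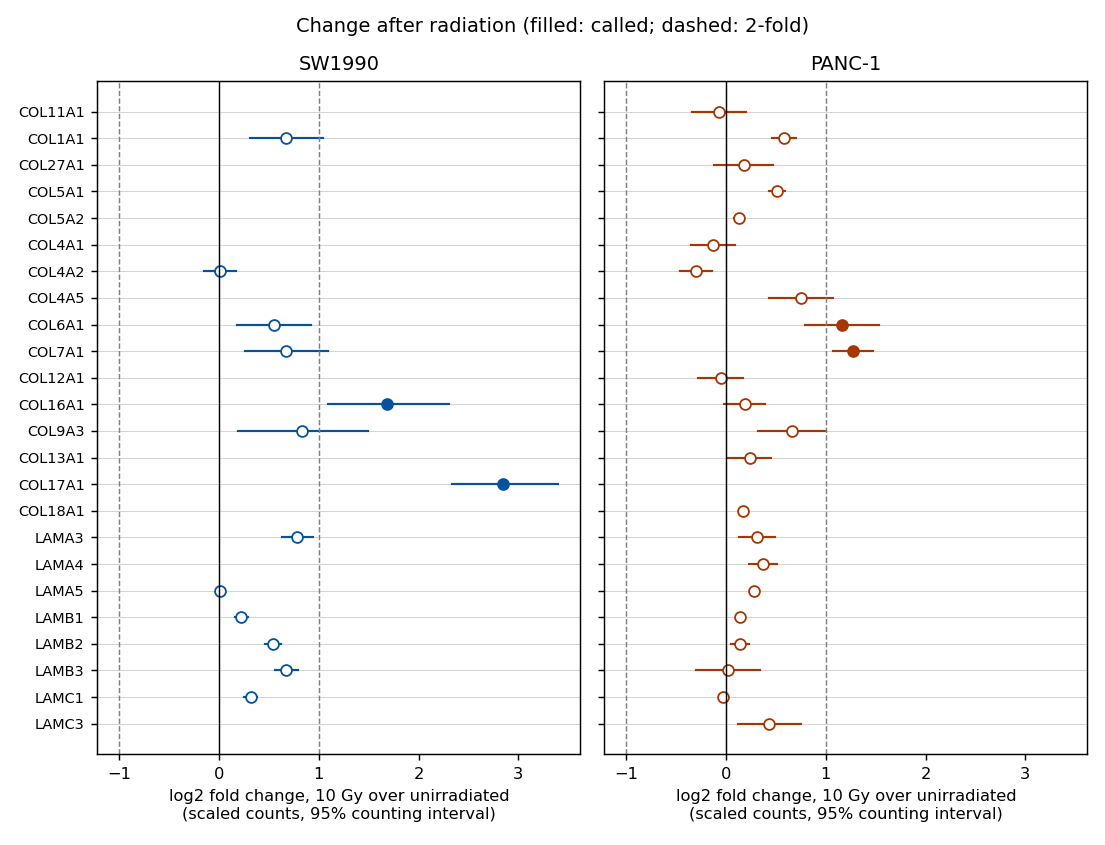
Log2 fold change of scaled counts after 10 Gy (x axis) for tested collagen and laminin genes (y axis) in SW1990 (left) and PANC-1 (right), with 95% counting intervals; filled points were called and dashed lines mark 2-fold. COL17A1 at 2.85 and COL16A1 at 1.68 lie beyond 2-fold in SW1990, and COL7A1 at 1.27 and COL6A1 at 1.16 in PANC-1.

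Most of the tested genes had a value above 0 in each line. In SW1990 this was so for 13 of 14, with a median log2 fold change of 0.61, whereas over all tested genes 49.3% lay above 0 with a median of -0.01. In PANC-1 it was 18 of 24 with a median of 0.18, against 48.3% and -0.02 over all tested genes. Since the filter can let a gene in through its higher library, the same values were taken with other filters, chosen after the data were seen. A mean of at least 1 CPM gave 19 of 23 with a median of 0.56 in SW1990 and 22 of 29 with 0.19 in PANC-1. Requiring an FPKM of 1 in both libraries gave 9 of 10 with 0.43 and 16 of 22 with 0.17. These counts describe 2 pairs of libraries, and genes of 1 library are not replicates.

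When both lines were fitted together, none of the 35 tested genes passed for radiation (edgeR's quasi-likelihood test, lowest adjusted p = 0.94), and 0 of all 18180 genes did (0% called). At an unadjusted p below 0.05, 5 of the 35 passed, COL7A1, COL1A1, LAMA3, COL17A1 and COL6A1, all with a value above 0, beside 877 of all genes (4.82%). DESeq2 called 20 genes and limma 1, and neither called any collagen or laminin. The log2 fold change in this fit was 1.002 for COL7A1, 0.63 for COL1A1, 0.56 for LAMA3, 1.796 for COL17A1 and 0.87 for COL6A1.

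Genes that act on collagens were taken from 3 further lists. Of 35 collagen processing genes, 23 were tested in SW1990 and 15 lay above 0, beside 49.3% of all tested genes. Only 1 was called, P3H2, a prolyl 3-hydroxylase, from 36 to 84 counts (log2 fold change 1.22, 0.64 to 1.82). In PANC-1, 26 were tested and 19 lay above 0, beside 48.3% of all tested genes. Only SPARC, a collagen-binding matrix protein, was called there, from 20 to 68 counts (1.90, 1.16 to 2.69). The median of the list was 0.07 in SW1990 and 0.12 in PANC-1. P3H2 and SPARC, like NID2 and GP6 in the lists that follow, stood below an FPKM of 1 without radiation and were tested through the irradiated library alone, and the share of all genes called was 4.2% in SW1990 and 4.77% in PANC-1. Between the lines 18 of 32 differed, 13 higher in PANC-1 and 5 higher in SW1990, beside 33.6% of all genes. Of the 28 with at least 10 counts in all 4 libraries, 14 were called, beside 25.2% of all genes with such counts. The largest differences on the log2(FPKM + 1) scale were those of the lysyl oxidase LOXL2 (24, 14, 3063 and 3454 counts), the collagen chaperone FKBP10 (22, 26, 2054 and 1953 counts) and P3H2 (36, 84, 3183 and 2774 counts). All 3 were higher in PANC-1.

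Among 12 basement membrane partners, 6 were tested in SW1990 and all 6 lay above 0, beside 49.3% of all tested genes. Of these, NTN4 and NID2 stood at 0.86 and 0.55 FPKM without radiation and were tested through the irradiated library alone. Only NID2, a nidogen that links laminin to type IV collagen, was called, from 43 to 96 counts (1.15, 0.62 to 1.71), beside 4.2% of all genes. In PANC-1, 0 of 7 were called, beside 4.77% of all genes. Between the lines 7 of 10 differed, 3 higher in SW1990 and 4 higher in PANC-1, beside 33.6% of all genes. Of the 10, 5 had fewer than 10 counts in at least 1 library, and 2 of the other 5 were called, beside the same 25.2%. NID1, the other nidogen, had 0, 4, 3005 and 3250 counts. FRAS1, a basement membrane protein of epithelia, had 5439, 5994, 2 and 6 counts, and TINAGL1 had 1382, 1550, 57 and 45 counts. Each line therefore had basement membrane partners close to absent in the other.

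Among 16 collagen and laminin receptors, DAG1, which encodes dystroglycan, a receptor of laminin alpha chains, rose in SW1990 from 1605 to 5540 counts (1.78, 1.70 to 1.86). In PANC-1 DAG1 had 6478 and 5163 counts and a log2 fold change of -0.20 (-0.25 to -0.14). GP6, a collagen receptor of platelets, rose in PANC-1 from 23 to 55 counts (1.39, 0.66 to 2.16). These were the only receptors called, of 11 tested in SW1990 and 12 in PANC-1, beside 4.2% and 4.77% of all genes. Between the lines 11 of 14 differed, 8 higher in PANC-1, beside 33.6% of all genes, and 10 of the 13 with at least 10 counts in all 4 libraries were called, beside the same 25.2%. ITGA3 and ITGB1, the chains of a laminin-binding integrin, had 2623, 3359, 32071 and 25344 counts and 3841, 3485, 28767 and 20365 counts. BCAM, a receptor of LAMA5, was higher in SW1990, with 812, 1092, 113 and 127 counts.

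Counts and FPKM gave different answers for several of these long genes. In SW1990, COL17A1 had a log2 fold change of 2.85 on counts and 3.83 on FPKM, COL7A1 0.67 and 2.15, and COL9A3 0.83 and 2.06, while COL4A1, below the FPKM limit for testing, had 0.56 and -0.67. Of the 14 tested genes, 3 (21.4%) differed by more than 0.5 between the scales, against 5.19% of all genes, and in PANC-1 2 of 24 (8.33%) against 5.33%. CPM divided by FPKM gives the length in kilobases that joins the values of a gene in a library, apart from a factor common to the library. For COL17A1 this was 7.17 kb in unirradiated and 3.56 kb in irradiated SW1990, and 7.23 and 7.11 kb in PANC-1, where the longest of its 11 GENCODE 29 transcripts is 5.69 kb. For COL7A1 it was 10.3, 3.63, 6.74 and 5.43 kb, and for LAMA5 4.95, 5.05, 8.68 and 9.01 kb against a longest transcript of 11.4 kb. Among genes with at least 30 counts on both sides, this length differed by more than 1.5-fold between the SW1990 libraries for 4 of 21 (19.0%) of these genes and for 3.92% of all genes, and between the PANC-1 libraries for 2 of 28 (7.14%) and 3.65%. Between the lines it did so for 3 of 17 without and 5 of 18 with radiation, beside 4.60% and 5.11% of all genes. The part played by the transcripts assembled in each library was not tested, and the calls above rest on counts, except those of COL1A1 and COL4A5 with the fold from FPKM and those of limma.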

How the data were processed

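RNA of unirradiated and irradiated SW1990 and PANC-1 cells was analysed, with 1 library each. Per the labels, an mRNA library kit was used, and the samples are described as depleted of ribosomal RNA. Trimming was done by Trimmomatic 0.36, alignment by HISAT2 2.0 to GRCh38, estimation of FPKM by StringTie 1.3.3b and the study's own comparison by DESeq2 1.12.4, as its methods and processing notes state. Raw read counts and FPKM per gene and library stand side by side in the table the authors deposited, which has 59263 rows. The tool that made the counts is not given in the sources used here. Library totals over all rows were 17939210, 18388969, 23451153 and 20154644 counts. The 1089 rows that name no gene held 0.487%, 0.453%, 0.545% and 0.635% of the counts and stayed out of library sizes and tests. The number of unmapped value columns was 0.

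Counts were scaled by TMM (edgeR 4.0.16, R 4.3.3). Within a line, genes that reached an FPKM of 1 in either library were compared by an exact two-sided conditional binomial test of the reads with Benjamini-Hochberg adjustment, and called with the limits of the study (q below 0.001, fold above 2, CPM of 0 set to 0.01). The lines, and radiation over both lines, were compared with edgeR's quasi-likelihood test on all 4 libraries (filterByExpr, 1 residual degree of freedom, common coefficient of variation 0.219). Leaving out 1 library, the line was fitted alone. Intervals are exact Clopper-Pearson intervals at 95%. Intervals and floors cover counting error only, and reads carried no molecular identifiers. The tests were checked on simulated data. The simulated reads of the within-line test had no spread between cultures, and those of the fit of all 4 libraries had less than was estimated here. The check therefore does not cover the spread between cultures.

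Genes that reached an FPKM of 1 were given in detail, and those called in any comparison or among the 5 highest by FPKM in a library got their counts in every library. From the other lists, the genes called in a line and the 3 with the largest difference between lines, by log2(FPKM + 1), were named. Genes below the limits, such as COL4A6 and COL4A3, are named as partners of described chains. The members, lists and tests were chosen with earlier results of these data known. Alternatives used DESeq2 1.42.0, limma 3.58.1 on log2(FPKM + 1), other scalings, filters and fold limits, and an assumed spread. The filters on mean CPM and on both libraries were added after the data were seen. Promoter windows came from RefSeq, and 41 of the 56 genes had one. One gene of the set is counted but not reported here.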

Additional observations from a re-analysis of the deposited data

Results flagged for a closer look

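For COL4A2 and LAMC1, the log2 fold change after radiation had opposite signs in the lines. COL4A2 stood at 0.01 in SW1990 and -0.301 in PANC-1, and LAMC1 at 0.318 in SW1990 and -0.031 in PANC-1. The signs of LAMC1 depended on the scaling. With total counts it stood at 0.289 in SW1990 and 0.059 in PANC-1, and on FPKM at -0.112 and 0.004. The difference between the lines was not tested. The counting intervals of COL4A2 in SW1990 (-0.15 to 0.17) and of LAMC1 in PANC-1 (-0.07 to 0.01) include 0.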

How the results depend on the processing

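Within a line, 1 library a side leaves the spread between cultures unknown. With an assumed coefficient of variation of 0.2, the number of these genes called in SW1990 went from 2 to 1 (COL17A1) and in PANC-1 to 0, and all genes called to 99 and 103. With 0.4, both lines gave 0 of these genes, and 15 and 10 of all genes. An FPKM of at least 5 left 0 and 1 (COL7A1) of these genes and 305 and 319 of all genes, and a fold limit of 1.5 gave 5 and 4, and 1472 and 1794. Between the lines, limma on log2(FPKM + 1), which tested 25 of these genes in place of 35, called 16 in place of 28, all 16 among the 28. Of the other 12, 10 were not tested there and COL9A3 and LAMC3 were not called. DESeq2 called 23, all among the 28, without COL6A6, COL9A3, COL11A2, COL21A1 and COL26A1. Leaving out 1 library each gave 23 to 28 of these genes and 4838 to 5617 of all genes. Lost in at least 1 of these fits were COL7A1, COL9A3, COL11A2, COL16A1, COL21A1 and COL26A1. In the unirradiated pair of libraries alone COL16A1 had a log2 difference of -3.42 and in the irradiated pair -1.92. For radiation over both lines, DESeq2 called 20 genes and limma 1.

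Some small values changed sign. In SW1990, LAMA5 was -0.018 with total counts and -0.048 on FPKM, and LAMC1 was -0.112 on FPKM. In PANC-1, COL12A1 was 0.035 with total counts and 0.055 on FPKM, COL4A1 was 0.044 on FPKM, COL11A1 was 0.019 with total counts and 0.269 on FPKM, LAMB3 was -0.011 with DESeq2 size factors, and LAMC1 was 0.059 with total counts and 0.004 on FPKM. Between the lines, LAMA5 was 0.604 with limma on FPKM and COL6A1 was -0.264 in the irradiated libraries alone. The cause of these changes was not tested.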
